A study of Mus musculus with 3 samples.

Results

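The genes described here are 10 cytosolic heat shock chaperone genes of mouse liver: the inducible HSP70 genes Hspa1a and Hspa1b, the constitutive HSP70 gene Hspa8, Hsph1, Dnajb1, Bag3, the HSP90 genes Hsp90aa1 and Hsp90ab1, the small heat shock protein gene Hspb1, and the transcription factor gene Hsf1. They were taken by symbol from the 49492 entries of the count files, and all 10 were found. RNA was sequenced from livers of CD-1 mice, an outbred stock. The series holds 3 libraries, 1 per group: a control given phosphate-buffered saline, and mice given a sonicated suspension of zinc oxide nanoparticles in a daily oral dose of 25 mg/kg and collected after 8 or 12 weeks. The labels give neither sex nor age, nor the number of animals in a library, nor the control's time of collection, and with 1 library per group no difference has a replicate check.

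HSP70 proteins bind exposed hydrophobic stretches of other proteins and release them on ATP binding. J-domain proteins such as that of Dnajb1 deliver clients and speed ATP hydrolysis, while Hsph1 and Bag3 promote exchange of the nucleotide. HSP90 acts later, on nearly folded clients such as kinases and steroid receptors. The factor encoded by Hsf1 is held inactive by chaperones, and under proteotoxic stress it trimerises and binds heat shock elements, inverted repeats of the block nGAAn, before the inducible genes. In liver many of these genes also follow the daily rhythm of body temperature and feeding.

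Library totals ran from 13263211 to 14258770 counts. Levels are given as CPM, counts scaled to library size by the TMM method, at which 3 counts came to between 0.209 and 0.227 CPM. A ratio here means the log2 of one library's CPM + 1 over that of another. Genes past 2-fold were called, which is a threshold of size with no test behind it. The interval after a ratio is the exact 95% interval of the count ratio without the added CPM. It covers counting error only, and amplified reads are not independent molecules. Of all entries, 14585 reached 1 CPM in at least 1 library, among them all 10 chaperone genes. Hepatocyte markers such as Alb, at 21847 to 31793 CPM, were abundant in every library. The 8-week library also held 3194 counts of 15 skeletal muscle markers, against 32 in the control and 23 at 12 weeks.

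Hspa1a and Hspa1b moved furthest of the 10 genes, and their promoters are shown for that reason beside that of Hspb1, which went the other way. Both HSP70 genes are intronless and lie on the minus strand of chromosome 17, Hspa1b at 34956436 to 34959238 and Hspa1a at 34969190 to 34972156 in mm10 coordinates, with 9951 bases between them. The sequences are the 250 bases before the annotated start, 5′ to 3′ on the coding strand, from RefSeq on GRCm38.p6. Capitals mark a heat shock element core, GAANNTTC or TTCNNGAA.
Hspa1a (chr17:34972157-34972406, minus strand): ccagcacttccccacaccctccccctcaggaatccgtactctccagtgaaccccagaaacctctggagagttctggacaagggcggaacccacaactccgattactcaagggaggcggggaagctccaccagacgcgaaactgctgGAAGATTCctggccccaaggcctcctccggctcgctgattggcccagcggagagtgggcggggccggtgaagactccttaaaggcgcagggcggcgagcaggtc
Hspa1b (chr17:34959239-34959488, minus strand): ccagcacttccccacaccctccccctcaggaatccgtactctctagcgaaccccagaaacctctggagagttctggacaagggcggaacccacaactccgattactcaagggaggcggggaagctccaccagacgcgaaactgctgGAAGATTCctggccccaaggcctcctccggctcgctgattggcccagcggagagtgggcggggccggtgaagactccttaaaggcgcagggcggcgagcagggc
Hspb1 (chr5:135887669-135887918, plus strand): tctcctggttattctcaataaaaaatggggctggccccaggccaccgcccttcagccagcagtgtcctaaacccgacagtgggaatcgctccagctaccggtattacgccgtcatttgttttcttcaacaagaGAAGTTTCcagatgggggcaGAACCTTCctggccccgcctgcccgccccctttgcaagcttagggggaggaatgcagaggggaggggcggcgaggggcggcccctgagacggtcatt

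The HSP70 promoters differed at 3 of 250 bases (98.8% identity). Counted from 1 at the 5′ end, with the base of Hspa1a first, these were C44T, T47C and T249G. Both held 1 core, which began 104 bases before the start. Hspb1 held 2 cores, beginning 117 and 97 bases before its start. A promoter was listed for 6 of the 10 genes, also for Hsph1, Dnajb1 and Bag3, and not for Hspa8, Hsp90aa1, Hsp90ab1 and Hsf1. Hsph1 held 1 core upstream of each of its listed starts, and the windows of Dnajb1 and Bag3 held none upstream, which says only that these letters are not in the windows. A further window of Dnajb1 lies inside the gene, before a later listed start. With the 50 bases past the start included, Bag3 had 1 core and Hsph1 had 3, of which a pair overlapped and made a longer run of 3 blocks, GAA and TTC in turn with 2 bases between. Among all 32851 listed windows of 250 bases, 12.8% held a core, which reads the same on both strands, and 0.466% held a 3-block run on either strand. With the 50 bases past the start included, these shares were 15.1% and 0.603%. A match of letters is a description and not a binding site, and it stood before genes that were higher and before one that was lower.

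In the first comparison, of the liver after 8 weeks of ZnO nanoparticles with the control, Hspa1a and Hspa1b were called higher, Hspb1 was called lower and the other 7 genes were not called. Over all genes tested, 4.15% were called higher and 2.1% lower. Dnajb1 and Bag3 came close to 2-fold, Hsp90aa1 and Hsp90ab1 were lower by less, and Hspa8 and Hsf1 stood near the control. The median ratio of the 10 genes was 0.19, against -0.02 over all genes. In the second comparison, at 12 weeks, Hspa1a, Hspa1b and Bag3 were called higher and 0 genes lower, where 3.11% of all genes were called higher and 1.34% lower. The median was 0.35, against -0.01. Both comparisons use the same control library, so they are not independent of each other. In the calls and medians Hspa1a and Hspa1b enter singly, though reads that fit both genes keep them from being independent values.

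**Figure D1:**
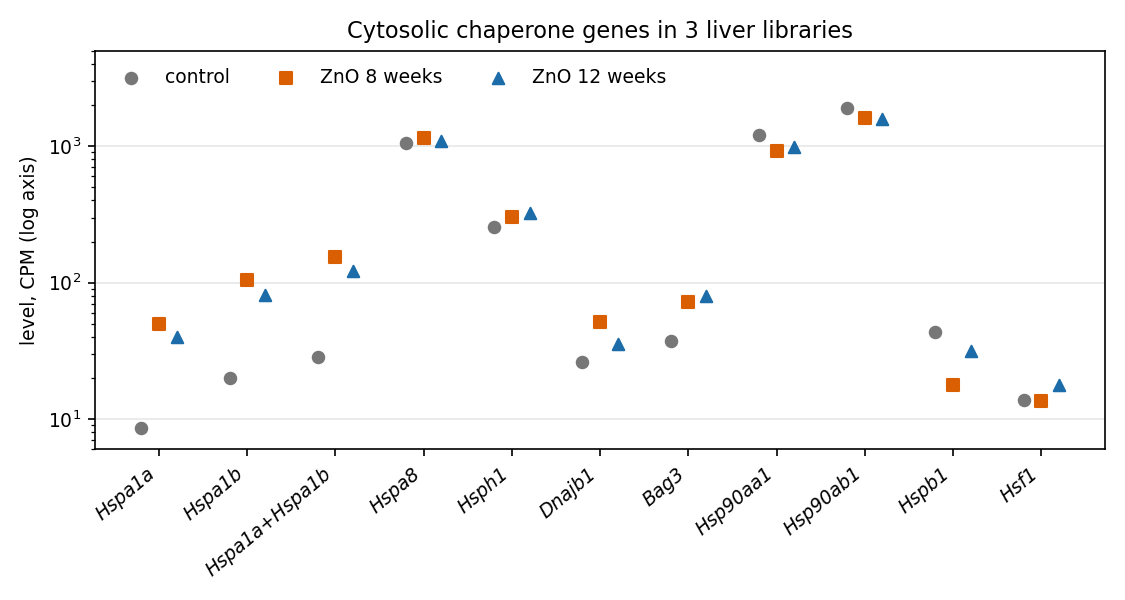
Level of each gene in CPM (log axis) in the control (circle), 8-week (square) and 12-week (triangle) libraries, 1 point per library. Both treated libraries lie above the control for Hspa1a, Hspa1b, Dnajb1, Bag3, Hsph1 and, by little, Hspa8. They lie below it for Hsp90aa1, Hsp90ab1 and Hspb1.

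The stress-inducible HSP70 genes had low counts in the control. Hspa1a had 117 control counts, 708 after 8 weeks and 532 after 12 weeks, or 8.62, 49.4 and 40.2 CPM. Hspa1b had 271, 1500 and 1083 counts, or 20.0, 105 and 81.8 CPM. Both treated libraries stood above the control for either gene, with 8 weeks the highest. Their transcripts were 99.2% identical over 2201 aligned bases, so the division of reads between them is uncertain and the sum is the firmer value. The sum went from 28.6 CPM in the control to 154 CPM at 8 weeks, 5.39-fold higher, and 122 CPM at 12 weeks, 4.26-fold higher. Its log2 ratios were 2.39 (interval 2.27 to 2.59) and 2.05 (1.93 to 2.26). Of the 14585 genes, 65 had a higher ratio than the sum at 8 weeks and 62 at 12 weeks. In bulk tissue, more cells of a type that holds a transcript and more transcript per cell cannot be told apart.

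The deposited counts gave Hspa1b 2.32 times the counts of Hspa1a in the control, and 2.12 and 2.04 times after 8 and 12 weeks. No source used here says how reads that fit both genes were shared out. Opposite Hspa1a lies Gm20481, all 564 exon bases of which overlap it. Gm20481 had 61, 339 and 275 counts in the order control, 8 and 12 weeks, a course like that of Hspa1a, and without strand information the reads of these genes cannot be told apart. Adding Gm20481 to the sum gave 33.1, 178 and 143 CPM and ratios of 2.39 and 2.08. This may count the same reads again and is no separate check of the pair. The related gene Hspa1l, mainly a testis gene, stayed below 1 CPM with 6, 10 and 10 counts.

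Hspa8 encodes the HSP70 that cells make without stress, which also uncoats clathrin vesicles. It had 1050, 1142 and 1095 CPM in the same order, with log2 ratios of 0.12 (0.09 to 0.15) and 0.06 (0.03 to 0.09). These intervals lie above 0, yet they leave out the spread between animals. Per kilobase of merged exon, Hspa8 was 24.3 times as abundant as Hspa1a plus Hspa1b in the control, and 4.92 and 5.96 times after 8 and 12 weeks. The length used for Hspa8 was 4301 bases of merged exon, against 2394 in its longest coding transcript. With the shorter length these ratios would be larger. A search of annotated transcripts with Hspa8 returned 13 genes at 90% identity or more over 300 bases or more, of which 12 were in the files. Together they held 16438 counts in the control against 14247 for Hspa8 itself. That sum can hold the same reads under more than 1 entry, since Gm15459 and Gm26825 overlap on opposite strands with nearly equal counts, and without Gm26825 it was 9602. The level of Hspa8 is therefore uncertain. With the copies added, the ratios were 0.05 and 0.04, and without Gm26825 they were 0.06 and 0.04.

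Among the partners of HSP70, the nucleotide exchange factors Hsph1 and Bag3 and the J-domain gene Dnajb1 were all higher than control in both treated libraries. Hsph1, the large HSP110 chaperone, had 254, 303 and 323 CPM and ratios of 0.26 (0.19 to 0.32) and 0.35 (0.29 to 0.42). Dnajb1, a main J-domain partner of inducible HSP70, had 26.2, 51.4 and 35.8 CPM. Its ratio of 0.95 at 8 weeks lay just under the 2-fold line with an interval of 0.79 to 1.16 that spans it, and at 12 weeks it was 0.43 (0.25 to 0.65). Bag3, which links HSP70 and small heat shock proteins to selective autophagy, had 37.3, 71.6 and 79.4 CPM. Its ratio of 0.92 (0.79 to 1.10) at 8 weeks was under the line and that of 1.07 (0.94 to 1.25) at 12 weeks over it, and both intervals span the line. With 5 CPM added in place of 1, Bag3 was no longer called at 12 weeks. Hsph1, Dnajb1 and Bag3 had no annotated copies by the same search.

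The HSP90 genes carried most of the counts of the 10 genes, copies left out, and were lower in both treated libraries. Hsp90aa1, the more stress-responsive of the pair, had 1214, 918 and 979 CPM. Its ratios were -0.40 (-0.44 to -0.37) and -0.31 (-0.34 to -0.28). Hsp90ab1, the steadier form, had 1906, 1603 and 1582 CPM and ratios of -0.25 (-0.28 to -0.22) and -0.27 (-0.30 to -0.24). Neither came near 2-fold. Adding the 4 copies of Hsp90aa1, chiefly Gm12346 and Gm5844, gave -0.43 and -0.32. Together Hsp90aa1 and Hsp90ab1 made up 68.2% of the CPM of the 10 genes in the control and 59.0% and 60.0% after 8 and 12 weeks. The share of Hspa1a and Hspa1b went from 0.625% to 3.61% and 2.86%. These shares leave out the copies of Hspa8, which without Gm26825 held 708, 690 and 715 CPM. The 10 genes in all held 4573, 4274 and 4266 CPM, so the total was lower where the inducible pair was higher.

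Hspb1, the small heat shock protein that holds unfolded proteins and binds actin, was the member called lower. Its counts were 586, 256 and 416 in the order control, 8 and 12 weeks, or 43.2, 17.9 and 31.4 CPM. At 8 weeks it was 2.42-fold lower, with a ratio of -1.23 (-1.49 to -1.06), and 175 of the 14585 genes had a lower one. At 12 weeks the ratio was -0.45 (-0.64 to -0.28). Gm9817 and the pseudogene Hsp25-ps1, each 99.8% identical to it over more than 400 bases, overlap each other on opposite strands. Gm9817 had 128, 54 and 98 counts and Hsp25-ps1 had 126, 54 and 99, in the same order as Hspb1. The 3 entries together had ratios of -1.25 and -0.41. Without Hsp25-ps1, whose reads may be counted in Gm9817 too, the sum was 52.6, 21.6 and 38.8 CPM with ratios of -1.24 and -0.43.

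Hsf1, which encodes the factor that turns on the inducible genes, had 187, 194 and 236 counts, or 13.8, 13.5 and 17.8 CPM. Its ratio was -0.02 (-0.32 to 0.27) at 8 weeks, within counting error of the control, and 0.35 (0.09 to 0.66) at 12 weeks. The activity of this factor is set largely on the protein, which counts of its transcript do not measure.

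**Figure D2:**
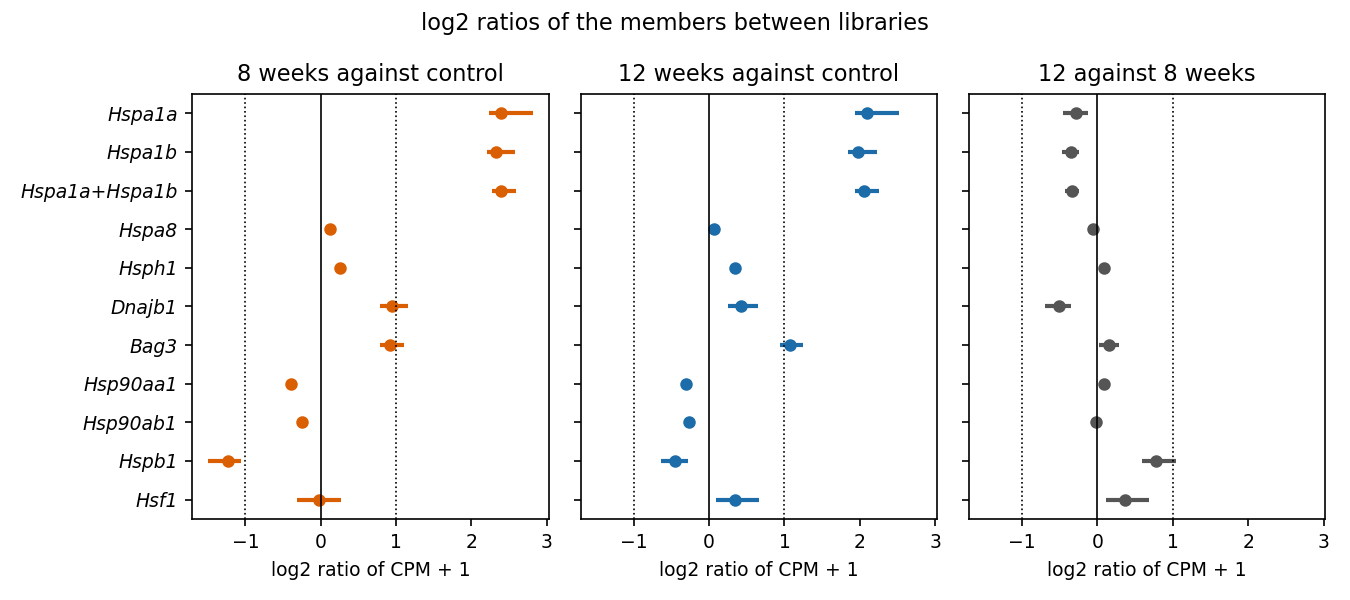
Log2 ratio of CPM + 1 (points) with the exact 95% interval of the count ratio (bars, counting error only) for each gene and the HSP70 sum in the 3 comparisons; dotted lines mark 2-fold. Hspa1a and Hspa1b lie beyond the line against the control at both times, Hspb1 lies beyond it at 8 weeks alone, Bag3 at 12 weeks alone, and no gene does between the treated libraries.

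The third comparison set 12 weeks against 8 weeks. None of the 10 genes was called in either direction, where 2.51% of all genes were called; no p-value can be had with 1 library each. Hspb1 stood highest at 0.78 (0.59 to 1.04), 1.76-fold higher at 12 weeks, and Dnajb1 lowest at -0.51 (-0.69 to -0.35). The HSP70 sum had -0.34 (-0.43 to -0.24) and Hsf1 0.37 (0.12 to 0.68). Bag3 (0.15), Hsp90aa1 (0.09), Hsph1 (0.09), Hsp90ab1 (-0.02) and Hspa8 (-0.06) moved less. Hspb1, Dnajb1 and, in smaller measure, the HSP70 sum, Hsp90aa1 and Hspa8 thus stood nearer the control at 12 weeks than at 8 weeks. Bag3, Hsph1 and Hsf1 stood further from it, and Hsp90ab1 hardly differed.

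Compared per kilobase of merged exon, the order of levels in the control ran Hsp90ab1 (636 CPM per kilobase), Hsp90aa1 (309), Hspa8 (244), Hspb1 (41.9), Hsph1 (34.9), Bag3 (14.6), Dnajb1 (8.19), Hspa1b (7.13), Hsf1 (6.83) and Hspa1a (2.91). Counting intervals overlapped there between Dnajb1 and Hspa1b and between Hspa1b and Hsf1. The merged exons of Hspa8 hold 4301 bases in 3 blocks, against 2394 in its longest coding transcript. For Hsp90aa1 these lengths are 3931 and 3281. The order of Hspa8 and Hsp90aa1 therefore depends on the length used, and copies of Hspa8 are left out. At 8 weeks Hspa1b had moved from the eighth to the fifth place at 37.3, and Hspb1 had gone from the fourth to the seventh at 17.3. Hspb1, Hspa1a (16.7) and Dnajb1 (16.1) could not be ordered beyond counting error at that time. At 12 weeks Bag3 (31.0), Hspb1 (30.5) and Hspa1b (29.2) could not be ordered, nor could Hspa8 (255) and Hsp90aa1 (249). Hsp90ab1 was first in all 3 libraries, and Hsf1 was the tenth in both treated ones.

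The other genes of protein folding were taken as 7 lists, whose calls stand against the shares over all genes given above. Among 37 further cytosolic chaperones and cofactors, 36 passed the filter, with 0 called in either direction at 8 or at 12 weeks and medians of -0.15 and -0.04. The J-domain gene Dnajb4 had 36.8, 73.7 and 51.3 CPM, close in course to Dnajb1, with 0.98 (0.85 to 1.16) at 8 weeks. Fkbp5, an HSP90 cochaperone induced by glucocorticoids, had 70.6, 119 and 136 CPM. The most abundant of the list, Dnaja1 and Hspa4, had ratios of 0.28 and -0.35 at 8 weeks and 0.03 and -0.14 at 12 weeks. The HSP90 cofactor Stip1 had -0.51 and -0.33 and the ATPase activator Ahsa1 -0.46 and -0.21, neither of them 2-fold.

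Of 9 other small heat shock protein genes only 5 passed the filter, and Hspb7 was called higher at both times (94 counts at 8 weeks and 26 at 12 weeks, against 5). Hspb7 is mainly a heart and skeletal muscle gene. Hspb8, the partner of Bag3, had 203, 180 and 260 CPM. The chaperonin TRiC and prefoldin had 0 of 14 members called at either time (medians -0.19 and -0.22), with Tcp1 at -0.12 and -0.23 and Cct8 at -0.19 and -0.29. Of 12 mitochondrial chaperones and proteases, 1 was called lower at 8 weeks, the unfoldase Clpx (400, 90.3 and 203 CPM), and 0 at 12 weeks. Hspd1 and Hspa9, the most abundant, had -0.09 and -0.06 at 8 weeks.

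Of 12 ER chaperones, 3 were called lower at 8 weeks and 0 at 12 weeks (medians -0.80 and -0.15). These were Sdf2l1 (-1.87), Pdia4 (-1.30) and Hyou1 (-1.20). Hspa5, the HSP70 of the ER, went the other way with 1055, 1779 and 1824 CPM and ratios of 0.75 and 0.79, as did its J-domain partner Dnajb9 with 0.47 and 0.88. The difference between the ER list and the cytosolic genes was not tested, for lack of replicates. Heat shock factors and HSF1 regulators had 0 of 7 kept members called. Hsf2 had 34.6, 30.9 and 21.4 CPM, and the ATPase Vcp, the most abundant, 193, 114 and 120 CPM. In the list of ubiquitin and aggregate handling, 0 of 6 were called. The autophagy receptor Sqstm1 had -0.91 at 8 weeks and -0.52 at 12 weeks, and Nbr1, another such receptor, -0.16 and 0.07.

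**Figure D3:**
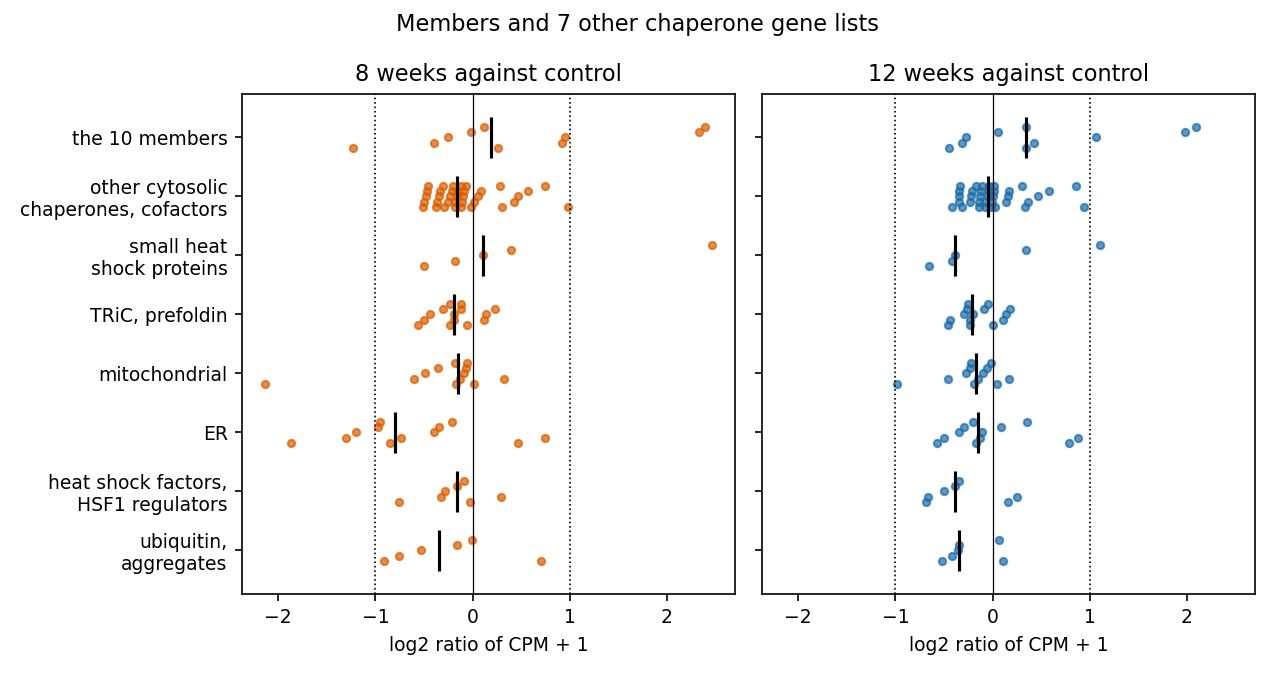
Log2 ratio against the control of each gene that passed the filter, for the 10 members and 7 other lists (points), with list medians (black bars) and 2-fold marked by dotted lines. Hspa1a and Hspa1b lie beyond 2 on this axis at 8 weeks, as does Hspb7 (2.47), while the medians of 5 of the 7 lists lie between -0.35 and 0 at 8 weeks and the ER list is lowest.

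Markers of some other cells and clock genes also differed between the libraries. All 12 Kupffer cell markers, genes of the resident liver macrophages, were called higher at 8 weeks and 11 of 12 at 12 weeks, with none at 0 counts. Their sum went from 96.7 CPM to 405 and 305, or 4.18-fold and 3.15-fold higher, where the HSP70 sum was 5.39-fold and 4.26-fold higher. Among them at 8 weeks were Cd5l (2.41), Mpeg1 (2.26), Timd4 (2.11) and Cd163 (2.06), and at 12 weeks Mpeg1 (2.03), Cd5l (1.74), Cd163 (1.69) and C1qb (1.66). Endothelial markers had medians of 0.43 and 0.38, with 1 of 9 called higher at both times, Lyve1 (1.07 and 1.17). Stellate cell and fibroblast markers had 0.45 and 0.37, with 1 of 8 called higher at 8 weeks, Col3a1 (1.01), and 0 at 12 weeks. Erythroid markers had 0.55 and 0.55, with 0 of 5 called at 8 weeks and Alas2 called lower at 12 weeks (-1.20). Hepatocyte markers had 0.31 and 0.46 with 0 of 9 called, Alb at 0.54 and 0.51 and Fgb at 0.14 and 0.70. Of these 9 markers, 1 was lower than control at 8 weeks, Apoa1 (-0.36). At 12 weeks 2 were lower, Apoa1 (-0.54) and Pck1 (-0.35). T and B cell markers had 56, 55 and 48 counts in all, with Cd3e at 15, 14 and 16 and Cd79a at 12, 15 and 5. Skeletal muscle markers, 13 of 13 kept members called higher at 8 weeks, had 2.36, 223 and 1.74 CPM in sum, led by Myh1 (2, 791 and 1 counts), Tnnt3 (3, 729 and 2), Myh2 (0, 351 and 0) and Tnnc2 (1, 198 and 0). Of their 15 genes, 10 had 0 counts in the control and 8 had 0 at 12 weeks. From 8 to 12 weeks Bag3 went from 71.6 to 79.4 CPM, the HSP70 sum from 154 to 122 CPM and Hspb7 from 94 to 26 counts. The part of Kupffer cells in these results, and that of muscle RNA at 8 weeks, was not tested.

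Of 14 core clock genes, 5 were called higher and 3 lower at 8 weeks, and 1 and 1 at 12 weeks. Arntl had 18.1, 1.40 and 5.29 CPM, and Per2, which HSF1 and temperature can induce, had 20.1, 76.6 and 45.3 CPM. Ciart had 2.19 and Per3 1.40 at 8 weeks. The cold-inducible Cirbp had 33.5, 18.8 and 19.6 CPM and Rbm3 55.3, 74.3 and 48.8 CPM. Immediate early genes, which respond within minutes to handling and stress, had 1 of 10 kept members lower at either time, Myc at 8 weeks (-1.04) and Egr1 at 12 weeks (-2.33), and Fos had 94, 82 and 72 counts. The hour of collection is not in the labels, and its part in the chaperone values was not tested.

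**Figure D4:**
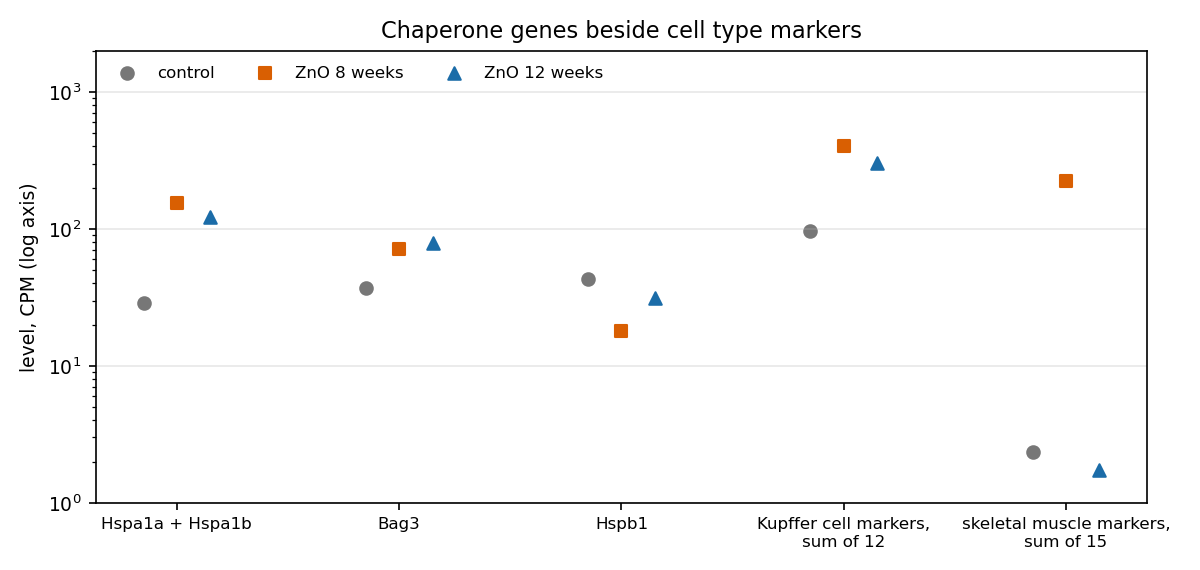
Levels in CPM (log axis) of the HSP70 sum, Bag3 and Hspb1 beside the summed Kupffer cell and skeletal muscle markers in the 3 libraries. The Kupffer sum (96.7, 405 and 305 CPM) follows the order of the HSP70 sum, whereas the muscle sum is high in the 8-week library alone.

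Among 9328 other named protein-coding genes with at least 5 CPM in 1 library, the 5 nearest to the HSP70 sum in their pair of ratios against the control were Mpeg1, Cux2, Cyp2a5, Rgs16 and Wfdc21. Nearness is the Euclidean distance over the 2 log2 ratios, which share the control library, and 3 libraries allow no more than a description. Mpeg1, a macrophage perforin, had 6.93, 37.1 and 31.4 CPM at a distance of 0.129. Cyp2a5, a cytochrome P450 with close relatives of similar sequence, had 84.0, 503 and 352 CPM. Rgs16, a regulator of G protein signalling, had 39.1, 190 and 186 CPM, and Wfdc21 57.3, 262 and 226 CPM. Cux2, a homeobox gene found mainly in female liver, had 9, 106 and 88 counts. Its control level of 0.663 CPM was below the 1 CPM added to each level, and its nearness rests on that addition. Without it Cux2 was 11.2-fold and 10-fold higher, where the HSP70 sum was 5.39-fold and 4.26-fold higher.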

How the data were processed

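RNA sequencing of 3 liver libraries was analysed from the authors' tables. These hold estimated counts per gene, deposited without normalization, with exon positions and merged exon lengths per the file headers. Cufflinks 2.2.1.0 and TopHat2 2.1.0 were used, per the submitters' processing notes, which list both mm9 and mm10. For 9 of the 10 genes (not Hsf1) start and end equalled those of GENCODE M21 (GRCm38), so coordinates are those of mm10. The counter, its strand setting and its handling of shared reads are not given in the sources used here. Counts were rounded, scaled by TMM (edgeR 4.0.16, R 4.3.3; factors 0.997, 1.005 and 0.999), and a gene was kept where any library reached 1 CPM. Log2 ratios used CPM + 1. Intervals are exact Clopper-Pearson intervals. The script was tested on simulated counts. With 1 library per group there is no test. The genes and 17 lists were chosen with earlier results of these data known. The text names all 10 members, up to 4 called genes of a list or else its 2 most abundant, and the 5 nearest in pattern. Dnajb4, Fkbp5, Stip1, Ahsa1, Hspb8, Hspa5, Dnajb9, Fos, Hspa1l, Apoa1 and Pck1 were named after their values were seen. Copies were sought with blastn 2.17.0 among GENCODE M21 transcripts. Other scalings (DESeq2 1.42.0 size factors among them), thresholds, filters and pseudocounts were tried.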

Additional observations from a re-analysis of the deposited data

How the results depend on the processing

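Over pseudocounts, scalings, unrounded counts and added copies, 264 log2 ratios of the 10 genes and the HSP70 sum were recomputed. Of these, 259 moved by less than the counting interval's half-width, 5 moved by more and 0 changed sign. Calling at 1.5-fold gave 5 of the 10 genes at 8 weeks in place of 3, adding Dnajb1 and Bag3, and 1 gene (Hspb1) between the treated libraries in place of 0. Over the 14585 genes tested, 1.5-fold gave 2709, 2261 and 1479 calls at 8 weeks, at 12 weeks and between them, in place of 912, 650 and 366. The 1 of 10 genes called between the treated libraries is thus close to the share over all genes. With 5 CPM added the 2-fold calls over all genes were 429, 259 and 161, and with 0.5 CPM the last was 563. Unrounded counts, scaling from 2 libraries and added copies were chosen after the data were seen. No paired analysis was possible because each group has 1 library.

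Single libraries leave animal-to-animal spread unmeasured. Reads shared between near-identical genes make Hspa1a, Hspa1b and Hspa8 uncertain singly. Hspa1l, with 6 to 10 counts, is too shallow for a change to be detectable.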

Other observations

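Entries nearly identical to chaperone genes, most of them annotated as processed pseudogenes, were also given counts. As the handling of shared reads is not known, these counts cannot be told from reads of the chaperone genes. Gm15459, 99.7% identical to the Hspa8 transcript over 1941 bases, had 6775, 7206 and 6769 counts in the order control, 8 and 12 weeks. Gm26825, annotated as a lincRNA, shares 1860 bases with it on the opposite strand and had 6836, 7285 and 6822 counts, so reads counted in both cannot be told apart here. Gm8355, 98.7% identical to Hspa8, had 2784, 2637 and 2661 counts. Of the 12 copies of Hspa8 in the files, these 3 were the ones above 100 counts in the control. The main copies of Hsp90aa1 were, like that gene, lower in both treated libraries: Gm12346 had 793, 556 and 569 counts and Gm5844 had 543, 289 and 393. The copies of Hsp90ab1 had 5, 1 and 2 counts in all beside 25866 of the gene itself.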
